A study of Mus musculus with 14 samples.

Results

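The 4 libraries described here measured gene expression in tumour regulatory T cells (Tregs) that lacked surface PD-1, with 2 libraries after anti-PD-L1 and 2 after an isotype antibody, out of 14 libraries in the series. They were taken as the libraries that the labels give as PD-1- Tregs of either treatment. The anti-PD-L1 arm received 200 µg of clone MIH5 and the isotype arm clone 2A3, each in 300 µl of saline into the peritoneal cavity on day 10, and cells were collected on day 13. All mice were labelled as female C57BL/6 animals aged 8 to 12 weeks that carried the genotype labelled GATIR Foxp3Cre-rfp Gata3Cre-yfp. All bore subcutaneous AE17-OVA tumours, grown from a murine mesothelioma that makes ovalbumin as a model antigen. Both arms therefore share the reporter alleles and the tumour. Sorting used CD4, CD25, PD-1 and the red reporter, and Smart-seq2, which copies full-length cDNA from small inputs without molecular identifiers, was used for the libraries. The other 10 libraries, from PD-1+ Tregs and other CD4 T cells, served for the shared estimate of spread and for the test of differences between populations. The number of animals or pools behind a library was not stated in the labels, and p-values therefore reflect only how these libraries vary, which may be in part technical.

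Tregs are CD4 T cells that express the transcription factor Foxp3 and restrain other T cells, and in tumours they can restrain the response against the tumour. PD-1 is an inhibitory receptor that T cells display after stimulation through the T cell receptor (TCR). When its ligand PD-L1 binds, PD-1 recruits phosphatases that damp signalling from the TCR and from the costimulatory receptor CD28, and PD-L1 antibodies block that contact. PD-L1 also binds CD80, and interferon-gamma is a known inducer of PD-L1 in many cells.

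Total counts were 12823841 and 11094251 in the anti-PD-L1 libraries and 10638848 and 11648953 in the isotype libraries. Between 8027 and 8801 genes had a count in a PD-1- Treg library, fewer than the 9662 to 11312 in PD-1+ Tregs and the 12119 to 14535 in CD4 T cells. Of 13434 genes tested, 3616 (26.9%) had at least 100 counts in each of the 4 libraries. These well detected genes held 79.6% and 82.4% of all counts in the anti-PD-L1 libraries and 83.8% and 83.9% in the isotype libraries, and the account below rests mainly on them. The libraries were noisy: across well detected genes the correlation of log2 levels was 0.658 between the 2 anti-PD-L1 libraries, 0.714 between the 2 isotype libraries and 0.608 to 0.656 between arms. These correlations run across genes, which are not independent replicates. In bulk samples, fewer cells that express a gene and less RNA per cell cannot be told apart.

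One library stood apart from its labels. The second anti-PD-L1 library held 2966 counts of 4 genes on the Y chromosome (Ddx3y, Eif2s3y, Kdm5d and Uty), while the first held 1 and the isotype libraries held 0, although every sample is labelled female. The third anti-PD-L1 library of each other population, which carries the same number, 3, in the brackets of its title, held 2929 counts for PD-1+ Tregs and 2767 for CD4 T cells. These 3 libraries are all anti-PD-L1, so what sets them apart cannot be fully told apart from treatment. Counts of genes called are therefore also given without the second anti-PD-L1 library, where the lone library left in that arm is assumed to vary like the other groups.

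Markers used for sorting, and the ligands of the treatment, come first. Foxp3 had 194 and 198 CPM in the anti-PD-L1 libraries, against 114 and 186 CPM in the isotype libraries, and its log2 fold change of 0.38 ± 0.87 did not pass the test (adjusted p = 1). Its mean level was 195.9 CPM in anti-PD-L1 PD-1- Tregs and 150.1 CPM in isotype PD-1- Tregs, above the 18.5 to 77.7 CPM of the 4 other groups. CPM is a gene's count per 1000000 counts of the library after TMM scaling. Pdcd1, which encodes PD-1, had 45.7 and 46.5 CPM under anti-PD-L1, against 39.9 and 21.7 CPM under isotype, and Il2ra, which encodes CD25, had 558 and 247 CPM under anti-PD-L1, against 662 and 552 CPM under isotype. Cd4 read 295 and 160.0 CPM in the anti-PD-L1 libraries, against 19.7 and 100.1 CPM in the isotype libraries, so the first isotype library was low for a gene of the sort. Cd274, which encodes PD-L1 itself, had 154 and 105 CPM under anti-PD-L1, against 0 and 19.6 CPM under isotype, and its log2 fold change of 3.72 ± 1.90 had an adjusted p of 0.292. Pdcd1lg2, the gene of the alternative ligand PD-L2, had 0 counts in both anti-PD-L1 libraries, against 23.7 and 56.7 CPM in the isotype libraries, and fell at least 169.5-fold against a floor of 3 counts per library (adjusted p = 0.00937).

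A minority of the genes measured passed the test of anti-PD-L1 against isotype. With so few libraries in each arm, genes that did not pass cannot be called unchanged. With edgeR's quasi-likelihood test, fitted over all 14 libraries and adjusted by the Benjamini-Hochberg method to a threshold of 0.05, 358 of 13434 genes passed (2.66%), 185 higher (1.38%) and 173 lower (1.29%). All adjusted p-values of single genes below come from that fit unless another is named, and log2 fold changes are given with their SE. The SE uses a spread shared by all 14 libraries, so it takes the populations as equally variable. It is not the spread of the PD-1- Treg libraries alone. Counts of list members that rose or fell, given below, are to be read beside these shares of 1.38% and 1.29%. Among well detected genes 67 rose (1.85% of 3616) and 58 fell (1.6%). A further 67 rises were of genes with 0 counts in both isotype libraries, and 87 falls were of genes with 0 counts in both anti-PD-L1 libraries. The anti-PD-L1 libraries both stood above the isotype libraries for 683 well detected genes (18.9%) and both below them for 853 (23.6%). At the edge of the threshold, Tpi1 and Dpysl2 passed with adjusted p of 0.0493 and 0.0496, and Manf and Arglu1 missed it with 0.0504 and 0.0505.

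**Figure D1:**
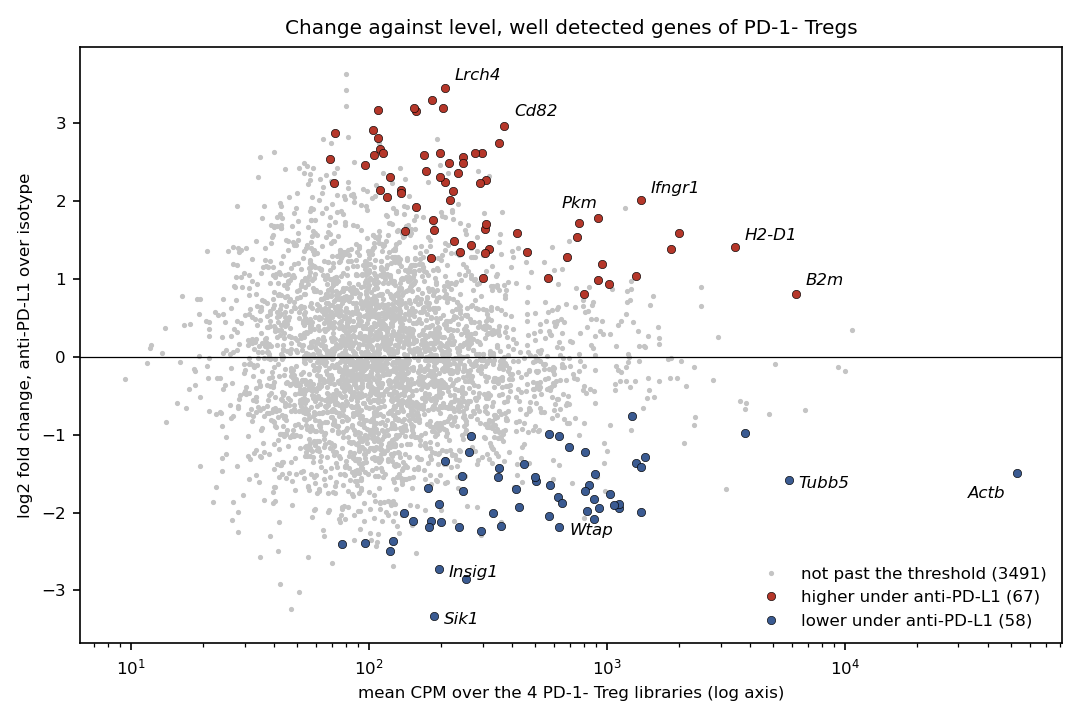
Log2 fold change (anti-PD-L1 over isotype) against mean CPM over the 4 PD-1- Treg libraries on a log axis, 1 point for each of 3616 well detected genes. Red points are the 67 genes that rose and blue points the 58 that fell. The highest gene, Actb, lies among those that fell.

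These counts differed widely between fits. A fit of the 4 PD-1- Treg libraries alone, with 2 residual degrees of freedom, called 0 genes with edgeR (518 genes at an unadjusted p under 0.05, against 2695 in the fit of 14 libraries), limma-voom with quality weights also called 0 (1077 at an unadjusted p under 0.05), and DESeq2 called 2755. Without the second anti-PD-L1 library 219 well detected genes passed, 109 higher and 110 lower, and 100 of the 125 were among them. Scaling to total counts raised the log2 fold changes of well detected genes by a median of 0.119 and gave 83 rises and 43 falls among them. Limma-voom without quality weights called 106 well detected genes, 32 higher and 74 lower. It kept 22 of the 67 rises and 39 of the 58 falls. Among the rises named below it did not call Ifngr1, Zap70, Cd6, Nfatc1, Tox, Tigit, Id2, Nkg7, B2m, H2-D1, Pkm, Ldha and Tpi1. It did call Socs1, Igtp, Rac2, Ly6a, Itgb7 and Selplg.

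The change also moved with base composition. In 5 equal bins of well detected genes by the GC content of their transcripts, the median log2 fold change was -0.267 in the lowest bin, -0.181, -0.0697 and 0.0325 in the next, and 0.30 in the highest. The highest bin, from 55.2% to 68.4% GC, held 28 rises and 4 falls, and the lowest, from 31.2% to 43.9%, held 3 rises and 15 falls. Genes that rose had a median GC content of 53.9% and genes that fell 48.1%, against 49.6% over all well detected genes. Across the same bins the median stayed between -0.067 and 0.0647 in PD-1+ Tregs and between -0.0266 and 0.019 in CD4 T cells. The part of base composition in the changes was not tested. With an offset for GC content, an alternative added after these values were seen, 76 of the 125 calls remained and the split became 47 higher and 71 lower.

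**Figure D2:**
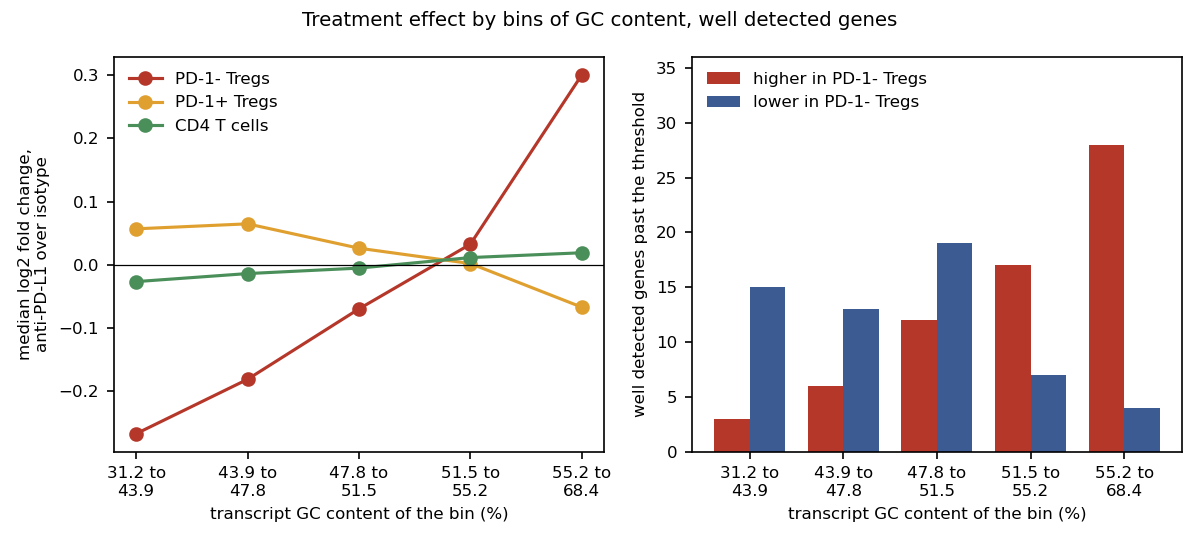
Left, the median log2 fold change (anti-PD-L1 over isotype) of well detected genes in 5 bins of transcript GC content, for PD-1- Tregs, PD-1+ Tregs and CD4 T cells. Right, the number of genes of each bin that rose (red, 3 in the lowest and 28 in the highest) or fell (blue, 15 and 4) in PD-1- Tregs.

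The receptor for interferon-gamma rose. Ifngr1, its ligand-binding chain (chromosome 10, 19591949 to 19610229, GRCm38.p6), had 1836 and 2599.7 CPM under anti-PD-L1, against 542 and 561 CPM under isotype, a log2 fold change of 2.01 ± 0.22 (adjusted p = 0.00119). Both anti-PD-L1 libraries lay more than 3-fold above both isotype libraries. Socs1, a feedback inhibitor of the Janus kinases under this receptor (chromosome 16, 10783808 to 10785536), rose too, with 438 and 402 CPM in the anti-PD-L1 libraries, against 107 and 43.5 CPM in the isotype libraries and a log2 fold change of 2.48 ± 0.50 (adjusted p = 0.0207). Igtp, an interferon-induced GTPase also called Irgm3 (chromosome 11, 58199556 to 58207592), had 846 and 1080.2 CPM under anti-PD-L1, against 462 and 331 CPM under isotype, a log2 fold change of 1.28 ± 0.28 (adjusted p = 0.0332). The groups did not overlap for any of these 3 genes, as for 18.9% of all well detected genes in that direction. Icam1, an adhesion ligand that interferon-gamma induces, was nearly absent from the isotype libraries, with 189 and 123 CPM under anti-PD-L1, against 1.86 and 0 CPM under isotype, and passed with an adjusted p of 0.0185.

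Other genes of the pathway gave few calls. Jak1, a kinase bound to the receptor, had 327 and 445 CPM in the anti-PD-L1 libraries, against 589 and 463 CPM in the isotype libraries, with a log2 fold change of -0.45 ± 0.27 (adjusted p = 0.382). Of 10 receptor and signalling genes tested, 2 rose and 0 fell, and of 26 interferon-gamma response genes 3 rose and 0 fell (Igtp, Icam1 and Socs1, which stands in both lists). Over all genes tested 1.38% rose and 1.29% fell. At an unadjusted p under 0.05 the response list had 5 genes higher and 0 lower. Its 21 well detected members had a median log2 fold change of 0.43, against -0.04 over all well detected genes, with 8 of them higher and 2 lower without overlap between arms, beside 18.9% and 23.6% of all well detected genes. That median turned to -0.09 without the first anti-PD-L1 library (9 higher and 12 lower) and was 0.16 with the GC offset. Among 29 genes of the type I interferon response, Ly6a, the stem cell antigen Sca-1, rose, with 437 and 516 CPM under anti-PD-L1, against 145 and 149 CPM under isotype, and Oasl2 fell to 0 counts in both anti-PD-L1 libraries, against 17.4 and 34.6 CPM in the isotype libraries. The call of Socs1 was lost with the GC offset (log2 fold change 1.62, adjusted p = 0.0945), and that of Igtp without the second anti-PD-L1 library (1.08, adjusted p = 0.0883).

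The promoters of the 3 well detected genes that rose in these lists are shown because they rose together in the interferon-gamma lists. They are the 250 bases before each RefSeq start (GRCm38.p6), in the gene's own direction. Capitals mark matches to TTCNNNGAA, the core of the gamma-activated sequence, or GAAANNGAA, the core of the interferon-stimulated response element, on either strand.
Ifngr1: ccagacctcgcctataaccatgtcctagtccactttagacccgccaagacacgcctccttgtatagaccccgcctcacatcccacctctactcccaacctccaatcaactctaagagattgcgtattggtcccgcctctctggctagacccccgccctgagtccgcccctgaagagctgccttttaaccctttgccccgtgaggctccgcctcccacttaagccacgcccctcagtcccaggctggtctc
Igtp: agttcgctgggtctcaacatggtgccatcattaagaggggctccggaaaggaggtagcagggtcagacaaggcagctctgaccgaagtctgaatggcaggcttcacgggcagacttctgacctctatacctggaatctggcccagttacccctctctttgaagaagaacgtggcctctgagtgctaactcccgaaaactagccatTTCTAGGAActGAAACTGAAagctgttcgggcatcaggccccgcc
Socs1: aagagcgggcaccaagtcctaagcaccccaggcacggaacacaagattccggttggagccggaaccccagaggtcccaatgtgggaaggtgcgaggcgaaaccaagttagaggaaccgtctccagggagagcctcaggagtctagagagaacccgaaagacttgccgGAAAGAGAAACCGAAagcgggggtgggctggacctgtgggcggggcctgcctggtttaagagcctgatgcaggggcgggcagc
The window of Igtp (chr11:58199306-58199555, plus strand) held 1 match to each motif, TTCTAGGAA from 45 to 37 bases before the start and GAAACTGAA from 34 to 26 bases before it. That of Socs1 (chr16:10785537-10785786, minus strand) held 2 matches to GAAANNGAA, GAAAGAGAA and GAAACCGAA, which overlap by 3 bases, and none to TTCNNNGAA. The window of Ifngr1 (chr10:19591699-19591948, plus strand) held no match to either. Over 32851 RefSeq promoters of that length, 7.02% held TTCNNNGAA, 7.13% held GAAANNGAA and 0.752% held both. These are matches of letters, and binding was not measured.

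**Figure D3:**
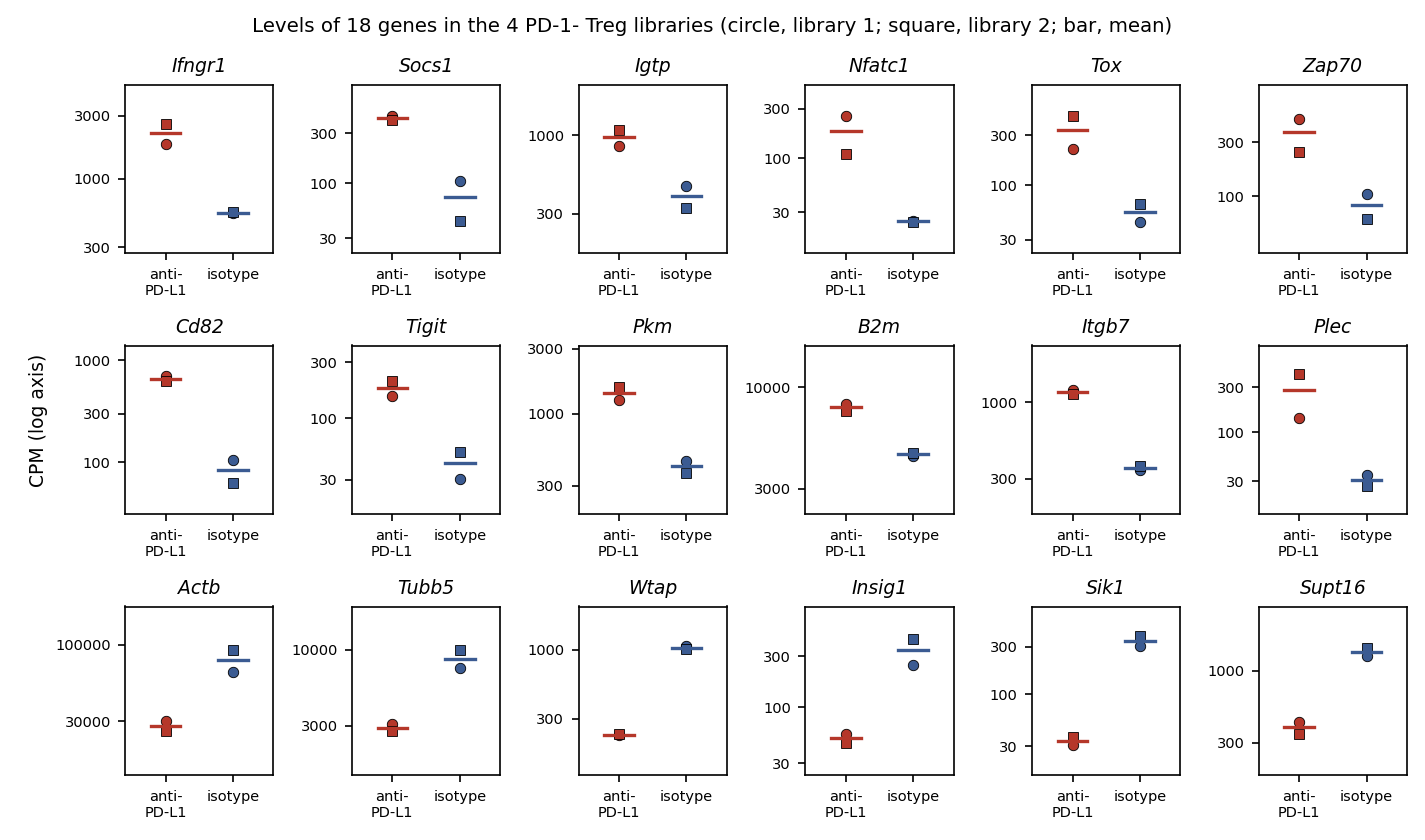
CPM on a log axis for 18 genes in the 4 PD-1- Treg libraries, anti-PD-L1 (red) left of isotype (blue), with 1 point for each library and a bar for the mean. In every panel the 2 anti-PD-L1 libraries lie on 1 side of the 2 isotype libraries, above them for the first 12 genes and below them for Actb, Tubb5, Wtap, Insig1, Sik1 and Supt16. All 18 genes passed the test on these libraries, so their choice largely fixed the lack of overlap.

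Genes of TCR signalling were among the rises. Zap70, the kinase that docks on the phosphorylated TCR complex, had 485 and 246 CPM under anti-PD-L1, against 104 and 62.9 CPM under isotype, a log2 fold change of 2.13 ± 0.40 (adjusted p = 0.0161). Cd6, a surface co-receptor that tunes TCR signals, had 704 and 525 CPM in the anti-PD-L1 libraries, against 98.0 and 84.8 CPM in the isotype libraries, with 2.75 ± 0.66 (adjusted p = 0.0481). Rac2, a GTPase that links the receptor to the actin skeleton, had 2002 and 1546 CPM under anti-PD-L1, against 691 and 1033 CPM under isotype, with 1.04 ± 0.23 (adjusted p = 0.0324). These were the 3 genes that rose among 26 of the TCR complex and proximal signalling, where 0 fell, beside 1.38% and 1.29% of all genes tested. The 25 well detected members had a median log2 fold change of 0.38, which turned to -0.06 without the second anti-PD-L1 library (12 higher and 13 lower). With the GC offset none of the 3 calls was kept (adjusted p = 0.0822, 0.0888 and 0.0991).

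Of 18 TCR-induced genes 2 rose, both of them nuclear factors, and 1 fell, beside 1.38% and 1.29% of all genes tested. Nfatc1, which calcium signals from the TCR send into the nucleus, had 256 and 109.9 CPM under anti-PD-L1, against 24.7 and 24.2 CPM under isotype, a log2 fold change of 2.91 ± 0.50 (adjusted p = 0.00992). Tox, a nuclear factor of lasting stimulation, had 221 and 460.4 CPM in the anti-PD-L1 libraries, against 44.8 and 66.4 CPM in the isotype libraries, with 2.62 ± 0.37 (adjusted p = 0.00402). For both genes the anti-PD-L1 libraries differed from each other by more than 2-fold, and the lower of them still lay more than 3-fold above both isotype libraries. Nr4a1, an immediate reporter of TCR signals, had 426 and 529.6 CPM under anti-PD-L1, against 91.1 and 175 CPM under isotype, but its log2 fold change of 1.84 ± 0.49 missed the threshold (adjusted p = 0.0689). Junb, a subunit of the AP-1 factor, had 2634 and 1119 CPM under anti-PD-L1, against 370.1 and 631 CPM under isotype, with 1.91 ± 0.58 (adjusted p = 0.106). The gene of the list that fell was Rgs16, a regulator of G protein signals, with 0 counts in both anti-PD-L1 libraries, against 129 and 33.7 CPM in the isotype libraries (adjusted p = 0.00391). Cd83, an activation marker, had 76.2 and 311 CPM in the anti-PD-L1 libraries, against 614 and 623 CPM in the isotype libraries, with a log2 fold change of -1.68 ± 0.48 (adjusted p = 0.0856), and passed without the second anti-PD-L1 library (-3.04, adjusted p = 0.00114). Of the 12 well detected members 9 stood higher and 3 lower without overlap between arms, beside 18.9% and 23.6% of all well detected genes. Their median log2 fold change was 0.87, and 0.36 with the GC offset (8 higher and 4 lower). With that offset the log2 fold changes of Nr4a1 and Junb were 1.13 and 0.66.

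Inhibitory and suppressive molecules gave few calls. Tigit, an inhibitory receptor that marks highly suppressive Tregs, had 155 and 209 CPM under anti-PD-L1, against 30.6 and 52.0 CPM under isotype, a log2 fold change of 2.14 ± 0.34 (adjusted p = 0.00684), and was the only one of 13 inhibitory receptors tested that passed. Ctla4, the inhibitory receptor that competes with CD28, had 347 and 1157 CPM under anti-PD-L1, against 632 and 673 CPM under isotype, so that the anti-PD-L1 libraries lay on both sides of the isotype libraries. Gzmb, the cytotoxic protease granzyme B, had 209 and 272 CPM in the anti-PD-L1 libraries, against 0 counts in both isotype libraries, and was at least 873-fold higher (adjusted p = 0.0149). Lgals1, which encodes galectin-1, had 1242 and 949.9 CPM in the anti-PD-L1 libraries, against 532 and 653 CPM in the isotype libraries, with a log2 fold change of 0.89 ± 0.24 (adjusted p = 0.0737). It passed without the second anti-PD-L1 library (1.05, adjusted p = 0.0442). Of 14 suppressive molecules tested, Tigit and Gzmb rose and 0 fell, beside 1.38% and 1.29% of all genes tested.

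No gene of the Treg identity list passed in either direction in the edgeR fit of 14 libraries. At an unadjusted p under 0.05 the 17 genes had 2 higher and 3 lower, DESeq2 called 1 and 2, and limma-voom called 0. The 12 well detected members divided into 6 higher and 6 lower, with a median log2 fold change of 0.04. Without the second anti-PD-L1 library they were 4 higher and 8 lower (median -0.85), and with the GC offset 2 and 10 (median -0.29). Tnfrsf18, which encodes the receptor GITR, had 751 and 1418 CPM under anti-PD-L1, against 808 and 524 CPM under isotype. Among effector Treg genes Id2, a partner of E proteins that favours effector states, had 254 and 415 CPM under anti-PD-L1, against 96.7 and 143 CPM under isotype, a log2 fold change of 1.48 ± 0.27 (adjusted p = 0.0135), and was the 1 of 22 that rose. Icos, a costimulatory receptor of activated Tregs, had 759.9 and 328 CPM in the anti-PD-L1 libraries, against 256 and 234 CPM in the isotype libraries, and its log2 fold change of 1.15 ± 0.33 missed the threshold (adjusted p = 0.0869). Without the second anti-PD-L1 library it was 1.62 and passed (adjusted p = 0.00392). On the side of resting T cells Bach2, a repressor of effector programmes, had 0 counts in both anti-PD-L1 libraries, against 32.5 and 166 CPM in the isotype libraries, and fell at least 419-fold (adjusted p = 0.00794). The 15 well detected genes of the resting and central list had a median log2 fold change of -0.61, with 7 below and 1 above without overlap, beside 23.6% and 18.9% of all well detected genes. Their median was also below 0 in PD-1+ Tregs (-0.63) and CD4 T cells (-0.73). Foxo1, a transcription factor of quiescent T cells, had 61.2 and 40.8 CPM under anti-PD-L1, against 145 and 266 CPM under isotype (adjusted p = 0.0717).

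Of 22 Th1 and cytotoxic genes 5 rose, and of 26 chemokine receptors, integrins and adhesion genes 4 rose. The share over all genes tested was 1.38%. Nkg7, a cytotoxic granule protein, had 144 and 90.1 CPM under anti-PD-L1, against 25.0 and 25.0 CPM under isotype, a log2 fold change of 2.22 ± 0.36 (adjusted p = 0.0071), and was the well detected member of the Th1 and cytotoxic list that passed. Cxcr3, the chemokine receptor of Th1 cells and Th1-like Tregs, had 323 and 223 CPM in the anti-PD-L1 libraries, against 0.0931 and 6.61 CPM in the isotype libraries (adjusted p = 0.00999). Stat4, the factor downstream of interleukin-12, had 313 and 39.6 CPM under anti-PD-L1, against 2.33 and 0 CPM under isotype, so the 2 anti-PD-L1 libraries differed from each other by nearly 8-fold (adjusted p = 0.0251). Ccl3, a chemokine, had 11.9 and 66.8 CPM in the anti-PD-L1 libraries, against 0 counts in both isotype libraries. With Gzmb these were the 5 rises of the Th1 and cytotoxic list, where 0 fell and only 3 members were well detected. Gzmb and Ccl3 belong to the tested genes at 0 in both isotype libraries, of which 5.62% rose. Itgb7, the integrin beta 7 subunit that guides T cells to mucosa, had 1211 and 1129 CPM under anti-PD-L1, against 347 and 367 CPM under isotype, with 1.71 ± 0.35 (adjusted p = 0.0232). Selplg, the selectin ligand PSGL-1, had 1402 and 1247 CPM in the anti-PD-L1 libraries, against 478 and 681 CPM in the isotype libraries, with 1.19 ± 0.23 (adjusted p = 0.017). The calls of both Itgb7 and Selplg were lost with the GC offset, where the log2 fold changes were 0.91 and 0.32. The 12 well detected members of the chemokine receptor and adhesion list divided into 7 higher and 5 lower, with a median log2 fold change of 0.09 that turned to -0.02 without the first anti-PD-L1 library and to -0.07 without the first isotype library (6 and 6 both times), and 0 genes of that list fell.

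Of 19 genes of the IL-2 receptor and STAT5 list Gzmb alone passed. Il2rg, the chain that the receptors for interleukin-2 and related cytokines share, had 3597 and 3599 CPM under anti-PD-L1, against 5043 and 6945 CPM under isotype, lower without overlap, with a log2 fold change of -0.74 ± 0.21 (adjusted p = 0.0807). Of 36 proteasome genes 0 passed in the edgeR fit of 14 libraries without the GC offset, with 3 higher and 8 lower at an unadjusted p under 0.05. With the GC offset Psmb6, a proteasome subunit, passed as lower (-1.35, adjusted p = 0.0435). The log2 fold change of Psmb6 was -0.79 without the offset and -1.17 without the second anti-PD-L1 library. DESeq2 called 3 higher and 6 lower and limma-voom 0 and 2.

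The MHC class I light chain rose. B2m, beta 2 microglobulin, had 8227 and 7545 CPM under anti-PD-L1, against 4458 and 4592 CPM under isotype, a log2 fold change of 0.80 ± 0.13 (adjusted p = 0.00885). H2-D1, a classical heavy chain, had 5896 and 4123 CPM in the anti-PD-L1 libraries, against 1925 and 1862 CPM in the isotype libraries, with 1.40 ± 0.21 (adjusted p = 0.00528). H2-D1 is uncertain because counts under the name of H2-L, a near copy looked up for that reason, rose with it. These were 3507 and 2496 CPM under anti-PD-L1, against 998 and 991 CPM under isotype. Reads of such copies can be shared between them, so the rises of H2-D1 and H2-L are not separate results. The other 16 genes of class I presentation did not pass.

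Glycolytic enzymes were among the rises. Pkm, pyruvate kinase, had 1267 and 1578 CPM under anti-PD-L1, against 456 and 372 CPM under isotype, a log2 fold change of 1.78 ± 0.27 (adjusted p = 0.0058). Ldha, which makes lactate, had 1426 and 793 CPM in the anti-PD-L1 libraries, against 275 and 491 CPM in the isotype libraries, with 1.54 ± 0.36 (adjusted p = 0.0456). Tpi1, triose phosphate isomerase, had 295 and 221 CPM under anti-PD-L1, against 132 and 82.7 CPM under isotype, with 1.26 ± 0.30 (adjusted p = 0.0493). All 4 libraries kept to their arm for these 3 enzymes, which were called on these same libraries. The spread between anti-PD-L1 libraries was widest in Ldha. Aldoa, an aldolase, had 1104 and 797 CPM under anti-PD-L1, against 247 and 549.5 CPM under isotype, and Eno1, an enolase, had 1940.3 and 1395 CPM in the anti-PD-L1 libraries, against 974 and 724 CPM in the isotype libraries, with log2 fold changes of 1.25 ± 0.35 and 0.97 ± 0.28 that missed the threshold (adjusted p = 0.0809 and 0.0855). Of 19 glycolysis genes 3 rose and 0 fell, beside 1.38% and 1.29% of all genes tested. All 13 well detected members had a log2 fold change above 0, from 0.33 to 1.78 with a median of 1.01, and 10 of them stood higher without overlap, beside 18.9% of all well detected genes. That median was 1.18 without the second anti-PD-L1 library, with 12 of 13 members above 0, and 0.51 with the GC offset, where Tpi1 and Ldha no longer passed. The medians of the same 13 genes were 0.59 for PD-1+ Tregs and 0.43 for CD4 T cells.

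Oxidative phosphorylation gave 1 call. Of 52 genes, all well detected, Atp5d, a subunit of ATP synthase, rose, with 262 and 183 CPM under anti-PD-L1, against 47.4 and 55.7 CPM under isotype and a log2 fold change of 2.11 ± 0.42 (adjusted p = 0.0203, and 0.129 with the GC offset). The median was -0.22, with 17 members higher and 35 lower. Atp5b, the catalytic subunit of the same enzyme, had 883 and 763 CPM under anti-PD-L1, against 454 and 307 CPM under isotype, with 1.11 ± 0.39 (adjusted p = 0.149).

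**Figure D4:**
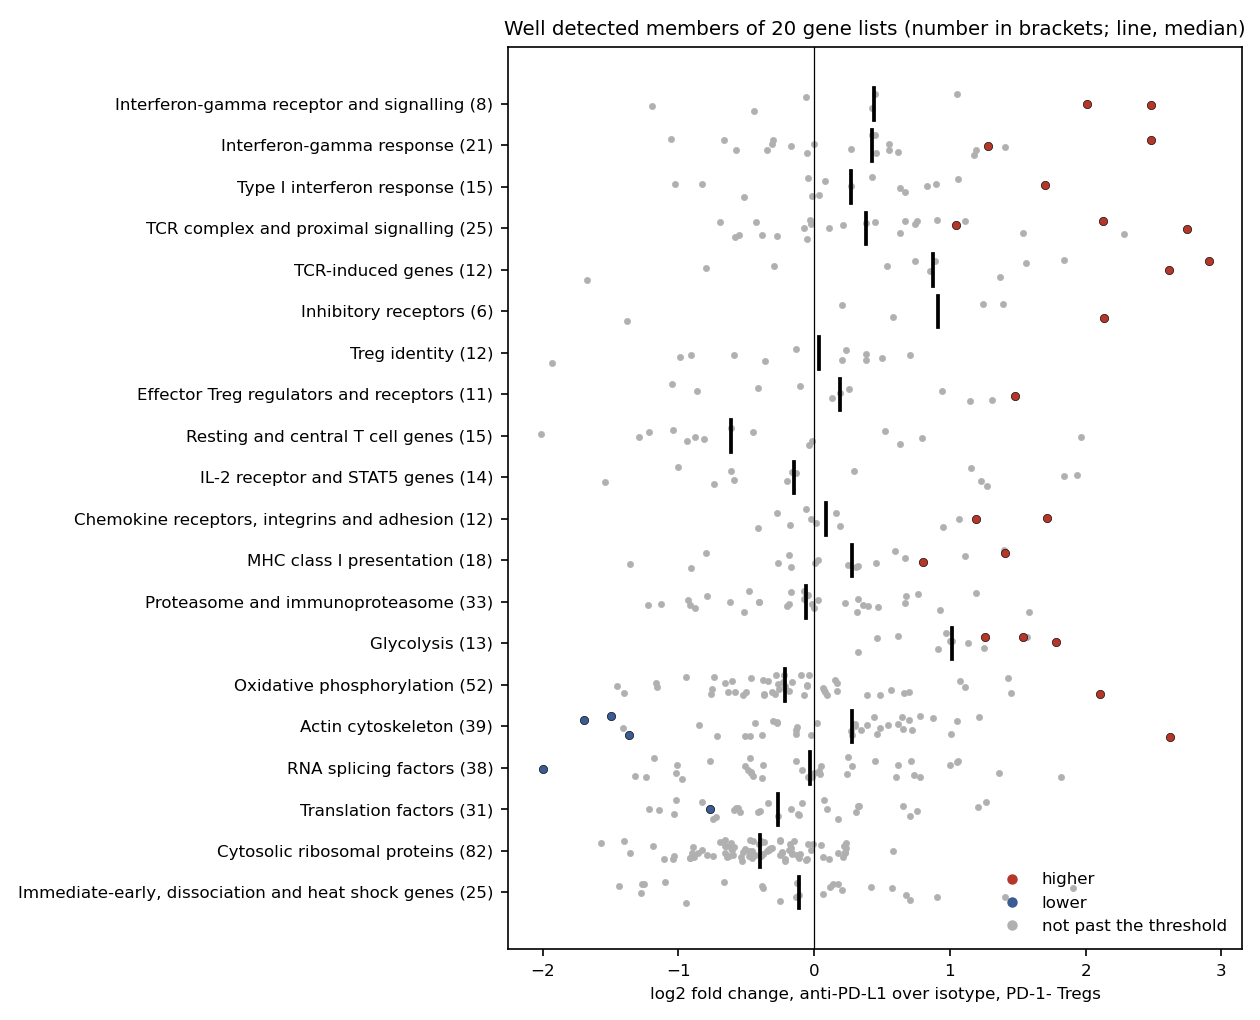
Log2 fold changes (anti-PD-L1 over isotype) in PD-1- Tregs of the well detected members of 20 gene lists, 1 point a gene, red for genes that rose, blue for genes that fell and grey for the rest, with a black line at the median. The median lies highest for glycolysis, at 1.01, and lowest for resting and central T cell genes, at -0.61, followed by cytosolic ribosomal proteins at -0.40.

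Several cytoskeletal genes fell, among them the gene with the highest count. Actb, cytoplasmic beta actin, had 30002 and 25578 CPM in the anti-PD-L1 libraries, against 64711 and 91864 CPM in the isotype libraries, a log2 fold change of -1.49 ± 0.25 (adjusted p = 0.00937), so that it took 3.16% and 2.74% of all counts in the anti-PD-L1 libraries, against 6.53% and 8.71% in the isotype libraries. Tubb5, a beta tubulin, had 3060.0 and 2738 CPM under anti-PD-L1, against 7452 and 9941 CPM under isotype, with -1.58 ± 0.22 (adjusted p = 0.0039). Actr2, a core subunit of the Arp2/3 complex that branches actin filaments, had 738 and 735 CPM under anti-PD-L1, against 1552 and 2252 CPM under isotype, with -1.37 ± 0.25 (adjusted p = 0.0149), and -1.06 with the GC offset (adjusted p = 0.0685). For these 3 genes the isotype libraries differed more from each other than the anti-PD-L1 libraries did. Cap1, which recycles actin monomers, had 202 and 187 CPM in the anti-PD-L1 libraries, against 477 and 785 CPM in the isotype libraries, with -1.70 ± 0.40 (adjusted p = 0.0459), and without the second anti-PD-L1 library -1.66 (adjusted p = 0.112). Cotl1, an actin-binding protein related to cofilin, moved the other way, with 688 and 338 CPM under anti-PD-L1, against 116 and 50.9 CPM under isotype, a log2 fold change of 2.62 ± 0.50 (adjusted p = 0.0165). Tmsb4x, which holds actin monomers, had 11192 and 12795 CPM under anti-PD-L1, against 10616 and 8308 CPM under isotype and did not pass (adjusted p = 0.349). Of 39 genes of the actin skeleton 1 rose and 3 fell, beside 1.38% and 1.29% of all genes tested. The median log2 fold change of the 39 was 0.28.

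Ribosomal protein genes had no member that passed in the edgeR fit of 14 libraries. At an unadjusted p under 0.05 the 86 tested had 1 higher and 20 lower, DESeq2 called 1 and 12, and limma-voom called 0. Of 82 well detected members 71 had a log2 fold change below 0, with a median of -0.40, and 38 lay lower without overlap, beside 23.6% of all well detected genes. Their medians were -0.71 for PD-1+ Tregs and -0.44 for CD4 T cells. Rps3 had 520.3 and 572 CPM in the anti-PD-L1 libraries, against 796 and 873 CPM in the isotype libraries, with a log2 fold change of -0.61 ± 0.23 (adjusted p = 0.18), and Rpl4 had 1354 and 1596 CPM under anti-PD-L1, against 1665 and 1992 CPM under isotype, with -0.31 ± 0.16 (adjusted p = 0.307). Eef1a1, which brings aminoacyl-tRNA to the ribosome, had 840.1 and 1038 CPM under anti-PD-L1, against 1576 and 1617 CPM under isotype and fell by 0.77 on the log2 scale (adjusted p = 0.046), the 1 call among 31 translation factors. It passed neither with total-count scaling (0.0804) nor with the GC offset (0.0993).

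Among 41 splicing factors 1 fell. Srsf2, a serine-rich splicing factor, had 481 and 632 CPM in the anti-PD-L1 libraries, against 2526 and 1913 CPM in the isotype libraries, with -1.99 ± 0.47 (adjusted p = 0.044), and missed the threshold without the second anti-PD-L1 library at a log2 fold change of -2.22 (adjusted p = 0.0685). Wtap, a subunit of the complex that writes m6A on mRNA, fell with little spread, at 226 and 228 CPM under anti-PD-L1, against 1058 and 1005 CPM under isotype, a log2 fold change of -2.18 ± 0.39 (adjusted p = 0.0115). Casp8, the initiator caspase of death receptors, had 142 and 110.5 CPM under anti-PD-L1, against 410.3 and 320.4 CPM under isotype, with -1.53 ± 0.33 (adjusted p = 0.0311), and was the well detected call among 24 survival and death genes. Without the second anti-PD-L1 library its log2 fold change was -1.38 (adjusted p = 0.0825).

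A few cell cycle genes passed. Nusap1, a spindle protein, had 38.5 and 5.72 CPM in the anti-PD-L1 libraries, against 0.0931 and 0 CPM in the isotype libraries and rose (adjusted p = 0.0284). Bub1, a spindle checkpoint kinase, had 0 counts in both anti-PD-L1 libraries, against 58.4 and 52.0 CPM in the isotype libraries, and fell (adjusted p = 0.0112). Pola1, the catalytic subunit of DNA polymerase alpha, had 51.2 and 14.2 CPM in the anti-PD-L1 libraries, against 0 counts in both isotype libraries. Of 24 mitosis genes 1 rose and 1 fell, and of 28 replication genes 1 rose and 0 fell, none of the 3 well detected. The shares over all genes tested were 1.38% and 1.29%. The list of immediate-early, dissociation and heat shock genes had 1 call of 30, Gadd45b, a stress sensor that fell to 0 counts in both anti-PD-L1 libraries, against 20.8 and 10.7 CPM in the isotype libraries. Hsp90ab1, a heat shock chaperone, had 1083 and 418 CPM under anti-PD-L1, against 1623 and 2449 CPM under isotype (adjusted p = 0.0571). It passed as lower with the GC offset (-1.57, adjusted p = 0.0297).

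The 15 largest rises among well detected genes ran from 2.62 to 3.45 on the log2 scale. Lrch4, a leucine-rich repeat membrane protein, had 402 and 359.6 CPM under anti-PD-L1, against 34.4 and 35.1 CPM under isotype, with 3.45 ± 0.51 (adjusted p = 0.00528). Its span on chromosome 5 lies wholly within Gm20605, which rose with it at 402 and 392 CPM in the anti-PD-L1 libraries, against 68.3 and 86.9 CPM in the isotype libraries, and reads of the overlap cannot be assigned to 1 of the 2 genes. Cd82, a tetraspanin that organises membrane receptors, had 695 and 619 CPM under anti-PD-L1, against 106 and 62.4 CPM under isotype and the smallest adjusted p of the 15 (2.97 ± 0.29, adjusted p = 0.000944). The 2 anti-PD-L1 libraries were close to each other for both Lrch4 and Cd82. Cmtm7, a MARVEL-domain membrane protein, had 322 and 344 CPM under anti-PD-L1, against 26.1 and 41.7 CPM under isotype, with 3.30 ± 0.42 (adjusted p = 0.00263). Ppp1r18, called phostensin, an actin-binding regulator of protein phosphatase 1, had 434 and 303 CPM in the anti-PD-L1 libraries, against 38.1 and 42.4 CPM in the isotype libraries, with 3.20 ± 0.51 (adjusted p = 0.00688). Plec, the cytolinker plectin, had 142 and 417 CPM under anti-PD-L1, against 34.5 and 26.8 CPM under isotype, a nearly 3-fold spread between the anti-PD-L1 libraries (3.19 ± 0.57, adjusted p = 0.0116). Nr3c1, the glucocorticoid receptor, had 189 and 195 CPM under anti-PD-L1, against 11.1 and 49.2 CPM under isotype, with 2.67 ± 0.55 (adjusted p = 0.0233).

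Lysosomal and other genes made up the rest. Pld3, a lysosomal nuclease, had 247 and 322 CPM in the anti-PD-L1 libraries, against 23.1 and 40.9 CPM in the isotype libraries, with 3.15 ± 0.40 (adjusted p = 0.00249), and Man2b1, lysosomal alpha-mannosidase, had 224 and 158 CPM under anti-PD-L1, against 24.2 and 30.2 CPM under isotype, with 2.81 ± 0.57 (adjusted p = 0.022). Nrbp1, a pseudokinase, had 155 and 238 CPM under anti-PD-L1, against 24.2 and 19.5 CPM under isotype, Wbp11, a splicing-associated protein, had 175 and 78.9 CPM in the anti-PD-L1 libraries, against 20.2 and 14.5 CPM in the isotype libraries, and Pbxip1, a partner of PBX homeodomain proteins, had 298 and 97.8 CPM under anti-PD-L1, against 38.5 and 25.8 CPM under isotype. Together with Nfatc1, Tox, Cd6 and Cotl1 these are the 15 genes. In all of them both anti-PD-L1 libraries lay above both isotype libraries, which their choice on these same libraries largely fixed. All 15 kept their direction without the second anti-PD-L1 library. With the GC offset 12 passed, where Plec, Cd6 and Cotl1 did not. DESeq2 kept 15 calls, but other fits kept fewer. With the number after rep in the titles as a block 11 passed, and with the number in brackets 8. Limma-voom kept 2, a fit of the 9 Treg libraries 1, and the fit of the 4 libraries and limma-voom with quality weights 0.

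The 15 largest falls ran from -3.33 to -2.10 on the log2 scale. Sik1, a salt-inducible kinase that holds CRTC coactivators in the cytoplasm (chromosome 17, 31844248 to 31855804), had 30.8 and 37.0 CPM under anti-PD-L1, against 303 and 380.2 CPM under isotype, with -3.33 ± 0.50 (adjusted p = 0.00528). Insig1, which retains the sterol sensor SCAP in the endoplasmic reticulum (chromosome 5, 28071412 to 28078662), had 56.4 and 46.9 CPM in the anti-PD-L1 libraries, against 249 and 435 CPM in the isotype libraries, with -2.73 ± 0.46 (adjusted p = 0.00937). Gid4, the substrate receptor of the CTLH ubiquitin ligase, had 19.5 and 104 CPM under anti-PD-L1, against 565 and 332 CPM under isotype, with -2.86 ± 0.68 (adjusted p = 0.0473). In all 15 genes both anti-PD-L1 libraries lay below both isotype libraries, which their choice on these same libraries largely fixed. For Gid4 the anti-PD-L1 libraries differed by more than 5-fold. Dhrs3, a retinaldehyde reductase, had 36.9 and 24.8 CPM under anti-PD-L1, against 219.8 and 103 CPM under isotype, with -2.39 ± 0.46 (adjusted p = 0.017). Znrf3, a ubiquitin ligase that removes Wnt receptors, had 112 and 147 CPM in the anti-PD-L1 libraries, against 544 and 626 CPM in the isotype libraries, with -2.18 ± 0.45 (adjusted p = 0.0243). Smc6, a subunit of the SMC5/6 complex of genome repair, had 137 and 69.9 CPM under anti-PD-L1, against 349 and 627 CPM under isotype, with -2.24 ± 0.38 (adjusted p = 0.00947). Tmco1, a calcium channel of the endoplasmic reticulum, had 79.6 and 49.3 CPM under anti-PD-L1, against 236 and 353 CPM under isotype, with -2.19 ± 0.36 (adjusted p = 0.00792).

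The remaining falls had similar sizes. Nmd3, an export adaptor of the large ribosomal subunit, had 42.7 and 31.2 CPM in the anti-PD-L1 libraries, against 144 and 272 CPM in the isotype libraries, and Timmdc1, an assembly factor of respiratory complex I, had 36.2 and 45.8 CPM under anti-PD-L1, against 225 and 198 CPM under isotype. Acot2, a mitochondrial acyl-CoA thioesterase, had 113 and 58.6 CPM under anti-PD-L1, against 277 and 505 CPM under isotype, and Atg3, the enzyme that attaches LC3 to lipid in autophagy, had 83.5 and 54.6 CPM in the anti-PD-L1 libraries, against 441 and 153 CPM in the isotype libraries. Klhl9, an adaptor of a cullin 3 ubiquitin ligase, had 62.3 and 87.7 CPM under anti-PD-L1, against 396 and 257 CPM under isotype, and Wfdc17, a secreted protein first described in activated macrophages, had 34.7 and 14.1 CPM under anti-PD-L1, against 162 and 97.1 CPM under isotype. Slc24a5, an ion exchanger known from pigment cells, had 47.1 and 69.0 CPM in the anti-PD-L1 libraries, against 289 and 209.5 CPM in the isotype libraries. Its span on chromosome 2 overlaps Myef2 by 7703 bases, and Myef2 fell too, at 59.5 and 107 CPM under anti-PD-L1, against 371 and 248 CPM under isotype, so counts of this pair cannot be told apart without strand. The 15 falls all kept their direction without the second anti-PD-L1 library. With the GC offset 10 passed, where Gid4, Nmd3, Wfdc17, Smc6 and Atg3 did not. DESeq2 kept 15 calls and limma-voom 6. With the number after rep in the titles as a block 7 passed, as with the number in brackets. The fits of the 9 Treg libraries and of the 4 libraries, and limma-voom with quality weights, kept 0. Other called genes named here also overlap a protein-coding neighbour that did not pass or was not tested, which leaves their counts uncertain: Gid4 with Atpaf2, Dhrs3 with Vps13d, Smc6 with Gen1, Srsf2 with Mfsd11, Cap1 with Ppt1, Dpysl2 with Pnma2, Tigit with Zbtb20, Ccl3 with Ccl4, Atp5d with Cbarp, B2m with Patl2, Tpi1 with Spsb2, Wbp11 with BC049715, Spsb3 with Nubp2 and Nusap1 with Oip5.

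Genes at 0 in 1 arm gave the largest folds and the least precise ones. Myo1f, an unconventional myosin of immune cells, had 311 and 139 CPM in the anti-PD-L1 libraries, against 0 counts in both isotype libraries, at least 818-fold higher. Phyh, Spsb3, Elp3 and Smim3 followed the same pattern, at least 467 to 586-fold higher. Cnn3, calponin 3, had 0 counts in both anti-PD-L1 libraries, against 196 and 119.7 CPM in the isotype libraries, at least 666-fold lower, and passed no longer without the second anti-PD-L1 library (adjusted p = 0.0638). Armc1, Chmp2b, Ormdl1, Zfp277 and Rbm43 were at least 334 to 615-fold lower. Of the tested genes 1193 had 0 counts in both isotype libraries and a count under anti-PD-L1, of which 5.62% rose, and 1440 had the reverse, of which 6.04% fell. Amplified reads do not each stand for a molecule, so the bounds speak to counting error alone.

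Markers of other cells were detected at levels that varied by list. Of 18 macrophage and monocyte genes C1qa and Fcgr1 were at 0 in all 4 libraries, and the summed level was 1487 and 1518 CPM in the anti-PD-L1 libraries, against 1921 and 1119.7 CPM in the isotype libraries. Those sums overlapped between arms. Mrc1, the mannose receptor of macrophages, had 0 counts in both anti-PD-L1 libraries, against 43.8 and 28.7 CPM in the isotype libraries, and was the call of that list. For 16 genes of dendritic cells and MHC class II the sum was 11400.0 and 9068 CPM in the anti-PD-L1 libraries, below 14643 and 15763 CPM in the isotype libraries, while Xcr1, Zbtb46 and Batf3 were at 0. Cd74, the class II invariant chain, had 6056 and 4320.2 CPM under anti-PD-L1, against 7644 and 9040.0 CPM under isotype. H2-Ab1, a class II chain, had 2907 and 3218 CPM in the anti-PD-L1 libraries, against 4506 and 4731 CPM in the isotype libraries. Cd209a, a lectin of dendritic cells, had 672 and 399.9 CPM under anti-PD-L1, against 996 and 861 CPM under isotype, lower in both anti-PD-L1 libraries. None of these 3 genes passed in the fit without the GC offset. With the GC offset Cd74 (-1.37, adjusted p = 0.039) and H2-Ab1 (-1.32, adjusted p = 0.0234) passed as lower, while Cd209a did not (adjusted p = 0.667). The dendritic cell and class II sums did not overlap. The 10 B cell genes tested summed to 304 and 42.0 CPM under anti-PD-L1, against 905 and 80.5 CPM under isotype, with Blk, Fcer2a, Cr2 and Ebf1 at 0, and 809 of the 905 CPM were Jchain, which was at 0 in the other 3 libraries. The 10 CD8 T and NK cell genes summed to 69.7 and 0 CPM under anti-PD-L1, against 20.8 and 60.7 CPM under isotype, with Cd8b1, Ncr1, Klrb1c, Klra7 and Gzmk at 0. The 6 neutrophil and mast cell genes tested summed to 56.8 and 17.5 CPM under anti-PD-L1, against 0 and 0 under isotype, with S100a8, Csf3r, Cpa3 and Retnlg at 0. That sum was Kit alone in the first anti-PD-L1 library and S100a9 alone in the second, so no gene of the list was detected in both. The sums of B cells and of CD8 T and NK cells overlapped between arms. The 15 tumour and stroma genes summed to 506 and 1205 CPM under anti-PD-L1, against 594 and 1926 CPM under isotype, with Msln, Wt1, Krt8 and Krt19 at 0. The part of such cells in the changes, among them the falls of Pdcd1lg2 and Wfdc17, which myeloid cells also express, was not tested.

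The treatment effect was then compared with that in the other populations, by the difference between 2 treatment effects in the same fit. Against PD-1+ Tregs 196 of 13434 genes differed (1.46%), and against CD4 T cells 131 (0.975%). Among well detected genes these were 56 (1.55%), 17 with the higher and 39 with the lower effect in PD-1- Tregs, and 17 (0.47%), 7 and 10. Of the 67 well detected rises, 50 had a log2 fold change above 0 for PD-1+ Tregs and 50 for CD4 T cells, with medians of 0.26 and 0.26, and the difference passed for 15 and 7 of them. Of the 58 falls, 42 had a log2 fold change above 0 for PD-1+ Tregs and 36 for CD4 T cells, with medians of 0.40 and 0.09, and the difference passed for 30 and 10. These genes were chosen on the PD-1- libraries, which enter each difference, so the counts describe them and test nothing further. With treatment and the number in brackets as a block, 10 of all genes tested differed from PD-1+ Tregs and 9 from CD4 T cells. Without the second anti-PD-L1 library 568 and 455 genes differed, and limma-voom with quality weights called 0 in both (1054 and 992 at an unadjusted p under 0.05).

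**Figure D5:**
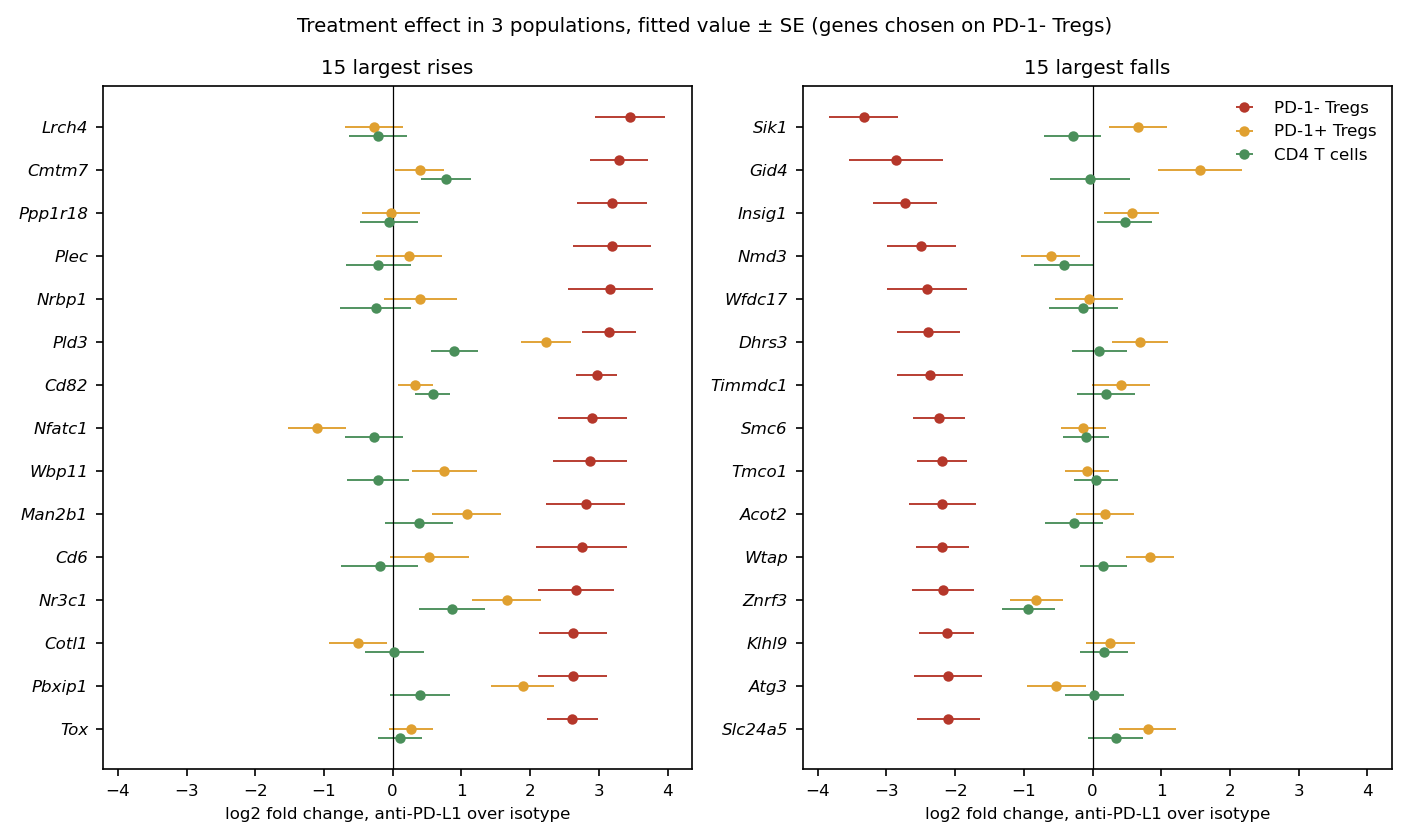
Fitted log2 fold change (anti-PD-L1 over isotype) with its SE for the 15 largest well detected rises (left) and falls (right). Red is PD-1- Tregs, orange is PD-1+ Tregs and green is CD4 T cells. Pld3, Nr3c1 and Pbxip1, and Gid4 among the falls, lie above 1.5 in PD-1+ Tregs, while most others lie within 1 of 0 in PD-1+ Tregs and CD4 T cells.

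For Ifngr1 the log2 fold change of 2.01 ± 0.22 here stood beside 1.93 ± 0.21 for PD-1+ Tregs (adjusted p = 0.00564) and 2.09 ± 0.21 for CD4 T cells (adjusted p = 0.00386). The differences of 0.07 ± 0.28 and -0.08 ± 0.28 did not pass (adjusted p = 1 and 1). The effect on Nfatc1 was higher here than in either other population, at 2.91 ± 0.50, against -1.10 ± 0.42 for PD-1+ Tregs and -0.28 ± 0.42 for CD4 T cells (adjusted p = 0.0107 and 0.0374). The same held for Tox, against 0.26 ± 0.32 for PD-1+ Tregs and 0.11 ± 0.32 for CD4 T cells (adjusted p = 0.0351 and 0.0291), and for Cd82, with 0.33 ± 0.25 and 0.58 ± 0.25 (adjusted p = 0.00733 and 0.0109). Zap70 differed from PD-1+ Tregs, where it was -0.67 ± 0.35 (adjusted p = 0.0241), while the difference from CD4 T cells did not pass (0.133). Among the falls Sik1 was at 0.66 ± 0.42 for PD-1+ Tregs and -0.29 ± 0.41 for CD4 T cells (adjusted p = 0.0113 and 0.0484), and Insig1 0.57 ± 0.40 and 0.47 ± 0.40 (adjusted p = 0.0207 and 0.0293). Actb was at 0.87 ± 0.23 for PD-1+ Tregs and 0.57 ± 0.23 for CD4 T cells, opposite in sign to its fall here (adjusted p = 0.00744 and 0.0165).

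Some genes stood out by the size of the difference between populations. Igfbp4, which binds insulin-like growth factors, had 72.9 and 44.8 CPM under anti-PD-L1, against 108 and 98.4 CPM under isotype in PD-1- Tregs, and its large difference from PD-1+ Tregs (adjusted p = 0.0107) rests on the fall of -7.64 ± 0.84 in those cells. Ppm1h, a protein phosphatase, had 215 and 229 CPM in the anti-PD-L1 libraries, against 878 and 958 CPM in the isotype libraries, with -2.05 ± 0.36 here and 1.11 ± 0.33 in PD-1+ Tregs (adjusted p = 0.01). Itpripl1 had 201 and 302 CPM under anti-PD-L1, against 642 and 874 CPM under isotype, with -1.59 ± 0.36 here and 0.75 ± 0.33 in CD4 T cells (adjusted p = 0.0469). Supt16, a subunit of the histone chaperone FACT, had 426 and 349 CPM under anti-PD-L1, against 1285 and 1466 CPM under isotype, with -1.83 ± 0.30, and Rpgrip1, known from photoreceptor cilia, had 346 and 321 CPM in the anti-PD-L1 libraries, against 1214 and 1425 CPM in the isotype libraries, with -1.98 ± 0.32. Those 2 genes overlap by 921 bases on chromosome 14 (52104241 to 52161339 for Rpgrip1 and 52160419 to 52197239 for Supt16), so reads of the overlap cannot be assigned to 1 of them. Ets1, a T cell transcription factor, had 1478 and 1804 CPM under anti-PD-L1, against 2282 and 3742 CPM under isotype, with a difference of -2.03 ± 0.36 from PD-1+ Tregs (adjusted p = 0.018). S1pr1, the receptor for exit from tissue, had 544 and 403 CPM under anti-PD-L1, against 207 and 340.2 CPM under isotype and passed in no comparison.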

How the data were processed

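The deposited table gave whole-number counts and RPKM values of 25124 genes in 14 libraries. Reads were aligned and summarised by the authors with HISAT2 2.0.4, SAMtools, HOMER 3.12 and DESeq2 on build mm10, per the submitters' processing notes, while neither labels nor file headers state which annotation, strand or counting options were used. All columns were matched to labelled samples. The deposited RPKM values entered an alternative test only, as log2(RPKM + 1).

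Genes were kept by filterByExpr (minimum count 10), scaled by TMM and fitted with edgeR 4.0.16 (robust quasi-likelihood, 6 group means over 14 libraries) in R 4.3.3. Differences between treatment effects came from contrasts in that fit. The common coefficient of variation was 1.22. Two-sided p-values were adjusted by Benjamini-Hochberg over 13434 genes. With 2 libraries against 2, an exact two-sided permutation test of 1 gene cannot go below 0.333. Smart-seq2 reads have no molecular identifiers, so counts overstate the number of independent molecules. Alternatives used DESeq2 1.42.0 and limma 3.58.1, other scalings and filters, replicate blocks, a GC offset and leaving out each library. The fits were also run on simulated counts, and the outcome is not given here.

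The text names the sorted and treatment genes, the 15 largest well detected rises and falls, the 6 highest genes at 0 in an arm per direction, called or highest members of 32 gene lists, the largest differences between populations and the 10 highest genes, of which those that add to the account are printed. Gm20605, H2-L, Myef2, Manf, Arglu1 and Dpysl2 were chosen after their values were seen. The comparison and the lists were chosen with earlier results of these data known.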

Additional observations from a re-analysis of the deposited data

Results flagged for a closer look

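For 32 of the genes named here the treatment effect in PD-1- Tregs differed from that in PD-1+ Tregs by the test of the difference itself (adjusted p from 0.0073 to 0.049 with edgeR, SE from 0.28 to 1.09). The test took all libraries as independent, although those numbered 3 in brackets share Y-linked counts. With treatment and bracket number as a block, 10 of all genes tested differed, and a fit of the 9 Treg libraries called 0. As log2 fold change in PD-1- Tregs minus that in PD-1+ Tregs, the positive differences were 6.83 for Igfbp4, 4.01 for Nfatc1, 3.73 for Lrch4, 3.22 for Ppp1r18, 3.13 for Cotl1, 2.90 for Cmtm7, 2.80 for Zap70, 2.72 for Gm20605, 2.64 for Cd82, 2.35 for Tox, 1.50 for H2-L and 1.25 for H2-D1. The negative ones were -4.42 for Gid4, -3.99 for Sik1, -3.34 for Foxo1, -3.30 for Insig1, -3.16 for Ppm1h, -3.08 for Dhrs3, -3.02 for Wtap, -2.90 for Slc24a5, -2.75 for Myef2, -2.64 for Cap1, -2.52 for Dpysl2, -2.40 for Itpripl1, -2.39 for Rpgrip1, -2.38 for Klhl9, -2.37 for Actb, -2.20 for Actr2, -2.14 for Supt16, -2.04 for Ets1, -1.86 for Tubb5 and -1.40 for Il2rg. H2-L and H2-D1 can share reads, as can Gm20605 and Lrch4, Myef2 and Slc24a5, and Rpgrip1 and Supt16, so the genes of each pair are not separate results. Il2rg, Ets1, Foxo1 and Igfbp4 passed for the difference without passing for treatment in PD-1- Tregs. Without the second anti-PD-L1 library of PD-1- Tregs the difference missed the threshold for Foxo1 (-3.06, adjusted p = 0.0521) and Cap1 (-2.57, adjusted p = 0.0547).

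For 16 genes the effect differed from that in CD4 T cells (adjusted p from 0.011 to 0.049, SE from 0.30 to 0.71). With treatment and bracket number as a block, 9 of all genes tested differed. The positive differences were 3.67 for Lrch4, 3.40 for Plec, 3.25 for Ppp1r18, 3.18 for Nfatc1, 2.52 for Cmtm7, 2.51 for Tox and 2.38 for Cd82, and the negative ones -3.19 for Insig1, -3.05 for Sik1, -2.39 for Rpgrip1, -2.34 for Itpripl1, -2.24 for Tmco1, -2.17 for Supt16, -2.06 for Actb, -1.96 for Actr2 and -1.62 for Tubb5. All these genes except Plec and Tmco1 also differed from PD-1+ Tregs.

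The second anti-PD-L1 library of PD-1- Tregs held 2966 counts of Y-linked genes, against 0 in both isotype libraries. Its origin was not tested.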

How the results depend on the processing

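The 67 well detected rises and 58 falls kept their direction under every alternative run, which their choice partly fixes, but the number of calls moved widely. For treatment in PD-1- Tregs (358 genes, 125 of them well detected), the counts were 0 and 0 in a fit of the 4 libraries and with limma-voom quality weights, 13 and 6 in a fit of the 9 Treg libraries, 2755 and 571 with DESeq2, 686 and 106 with limma-voom and 690 and 175 without the 3 libraries with Y-linked counts. Of the 106 well detected calls of limma-voom, 61 were among the 125. A fit of well detected genes alone called 213. Leaving out each library gave 196 to 1008 genes and 69 to 219 well detected ones, lowest without an isotype CD4 T cell library and highest without the first or second anti-PD-L1 library.

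For the difference from PD-1+ Tregs (196) and from CD4 T cells (131), DESeq2 called 2166 and 1804, limma-voom 399 and 293, quality weights 0 and 0, log2(RPKM + 1) 93 and 14, well detected genes alone 76 and 0 (606 and 473 at an unadjusted p under 0.05), and the fit without the libraries with Y-linked counts 413 and 347. The 9 Treg libraries alone called 0 for the first (1113 at an unadjusted p under 0.05). Leaving out each library gave 33 to 878 and 16 to 762 genes, lowest without the first isotype library of PD-1+ Tregs and of CD4 T cells in turn.

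Neither replicate number met the bar for pairing: deviations of libraries that share the number after rep correlated between -0.0333 and 0.074, and of those that share the number in brackets between -0.00659 and 0.074. The 3 libraries numbered 3 in brackets share Y-linked counts, and their pairs correlated at 0.0164 to 0.0354. With the number after rep as a replicate block, 146 and 58 genes passed for treatment and 32 and 20 for the differences. With the number in brackets as a block these were 128, 46, 44 and 30, with the GC offset and the rep block 115, 37, 31 and 21, and with treatment and bracket number together 10 and 9 differences.

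Among genes given with a log2 fold change or level in the text, Foxp3 and Ctla4, which did not pass, changed sign. The log2 fold change of Foxp3 was -0.13 with the GC offset and -0.00651 with that and the rep block. The log2 fold change of Ctla4 was -0.15 with limma-voom, -0.17 with quality weights, -0.41 with the bracket block, -0.94 without the Y-linked libraries, and between -0.93 (without the second anti-PD-L1 library) and 0.82 (without the first) with each library left out. The causes were not tested.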
